A study of Drosophila melanogaster with 3 samples.

Results

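The 9 genes described here encode secreted bone morphogenetic protein (BMP) ligands, the extracellular proteins that carry or release them, and their receptors in Drosophila melanogaster. They were taken by symbol as a fixed list, chosen with earlier results of these data known, and all 9 were found among the 13968 protein-coding genes on the chromosome arms of build dm6. Binding of Elba2 was mapped at them by chromatin immunoprecipitation and sequencing (ChIP-seq) in a single group of 3 biological replicates, numbered 1 to 3 in the labels. The material was whole embryos of strain CG9883-GFP, aged 0 to 4 h and pooled from both sexes. The line is transgenic and carries Elba2 with green fluorescent protein (GFP) at its C terminus, so that an antibody to GFP recovers the chromatin. All 3 replicates carry the same fusion, no library without it is among the samples, and pooled whole embryos do not tell apart dorsal cells, which receive BMP signal, from the others. No marker of cell type can be checked, because the data hold binding and no expression.

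The authors deposited a list of bound regions for each replicate (29295, 30000 and 30000 regions in replicates 1, 2 and 3) and for the replicates pooled (28496 regions). These lists are permissive and hold background. From them the authors kept 3276 optimal peaks by irreproducible discovery rate (IDR), a measure of how well the ranks of regions repeat between replicates. The 3276 optimal peaks were exactly the 3276 pooled regions with the highest signal. Signal is the authors' own value for a region and has no error of its own. Its scale is not stated, and it serves here only to rank regions within a list, rank 1 being the strongest. The depth behind a region is unknown, since no read counts were used here.

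BMPs are secreted signals of the TGF-beta family that bind a complex of type I and type II receptor kinases, which then phosphorylate the transcription factor Mad. In the fly embryo the ligands dpp and scw pattern the dorsal ectoderm. Their proteins are bound by Sog and Tsg, which hold them away from the receptors and let them move dorsally, and the protease Tld cuts Sog and sets the ligand free. Tkv and Sax are the type I receptors and Put is the type II receptor. Gbb is a further ligand, known mainly for later roles. Elba2 has a BEN domain, which contacts DNA, and belongs to ELBA, an insulator-binding complex of early embryos.

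Sequences under the strongest regions at the starts of scw, tsg, tld and tkv are shown because scw and tsg carried optimal peaks, whereas tld and tkv did not. Each runs 5′ to 3′ on the plus strand of dm6, read from the RefSeq copy of the Release 6 genome. The windows for scw, tld and tkv reach 100 bp to each side of the summit, the position of highest signal within a region. The window for tsg was extended on the side of the gene, because both of its marked words lie over 100 bp from the summit. Capitals mark CCAATAAG, the asymmetric ELBA site, and CAGGTAG, the site of Zelda, an activator of the early zygotic genome.
scw (chr2L:19700983-19701183): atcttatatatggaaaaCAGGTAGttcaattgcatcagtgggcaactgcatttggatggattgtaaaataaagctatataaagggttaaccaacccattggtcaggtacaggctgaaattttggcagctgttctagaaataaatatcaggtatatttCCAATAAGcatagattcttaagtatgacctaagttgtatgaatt
tsg (chrX:11988999-11989289): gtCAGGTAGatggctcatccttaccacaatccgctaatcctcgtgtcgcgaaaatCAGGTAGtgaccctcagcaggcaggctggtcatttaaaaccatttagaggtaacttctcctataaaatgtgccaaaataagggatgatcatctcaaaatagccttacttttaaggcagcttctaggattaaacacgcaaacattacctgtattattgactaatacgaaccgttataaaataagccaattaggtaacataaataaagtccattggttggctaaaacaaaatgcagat
tld (chr3R:24749263-24749463): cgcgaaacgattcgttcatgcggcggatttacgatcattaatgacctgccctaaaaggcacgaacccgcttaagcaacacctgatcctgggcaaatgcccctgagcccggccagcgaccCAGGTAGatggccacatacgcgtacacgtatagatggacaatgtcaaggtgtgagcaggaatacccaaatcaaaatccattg
tkv (chr2L:5242884-5243084): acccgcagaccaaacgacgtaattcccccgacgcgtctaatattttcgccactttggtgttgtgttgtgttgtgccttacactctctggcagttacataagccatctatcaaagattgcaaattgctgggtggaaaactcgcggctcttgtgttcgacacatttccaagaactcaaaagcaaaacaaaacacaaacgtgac
The scw window held CCAATAAG at 19701140 to 19701147 and CAGGTAG at 19701000 to 19701006. CAGGTAG also lay in the tsg window, at 11989001 to 11989007 and at 11989054 to 11989060, and in the tld window at 24749382 to 24749388. The tkv window had neither word on either strand.

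An optimal peak lay within 500 bp of an annotated transcription start site (TSS) at 3 of the 9 genes (33.3%), which were the ligand gene scw, the modulator gene tsg and the receptor gene sax. Among all 13968 protein-coding genes the share was 17.9%. Every one of the 9 genes had at least a weak pooled region at a TSS, against 53.2% of all genes. Within 250 bp of a TSS, 6 of the 9 genes had one. The share of all genes within 250 bp is not given here, so that count cannot be set against the 53.2%. The 9 genes have 1 to 4 TSSs each, and the share with an optimal peak grows with that number, with 37.3% of genes with at least 4 TSSs, 26.1% of genes with at least 2 and 14.9% of genes with 1. Of the 3 genes with an optimal peak, scw and tsg have 1 TSS and sax has 2, whereas dpp and tkv have 4 each and carried none.

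**Figure D1:**
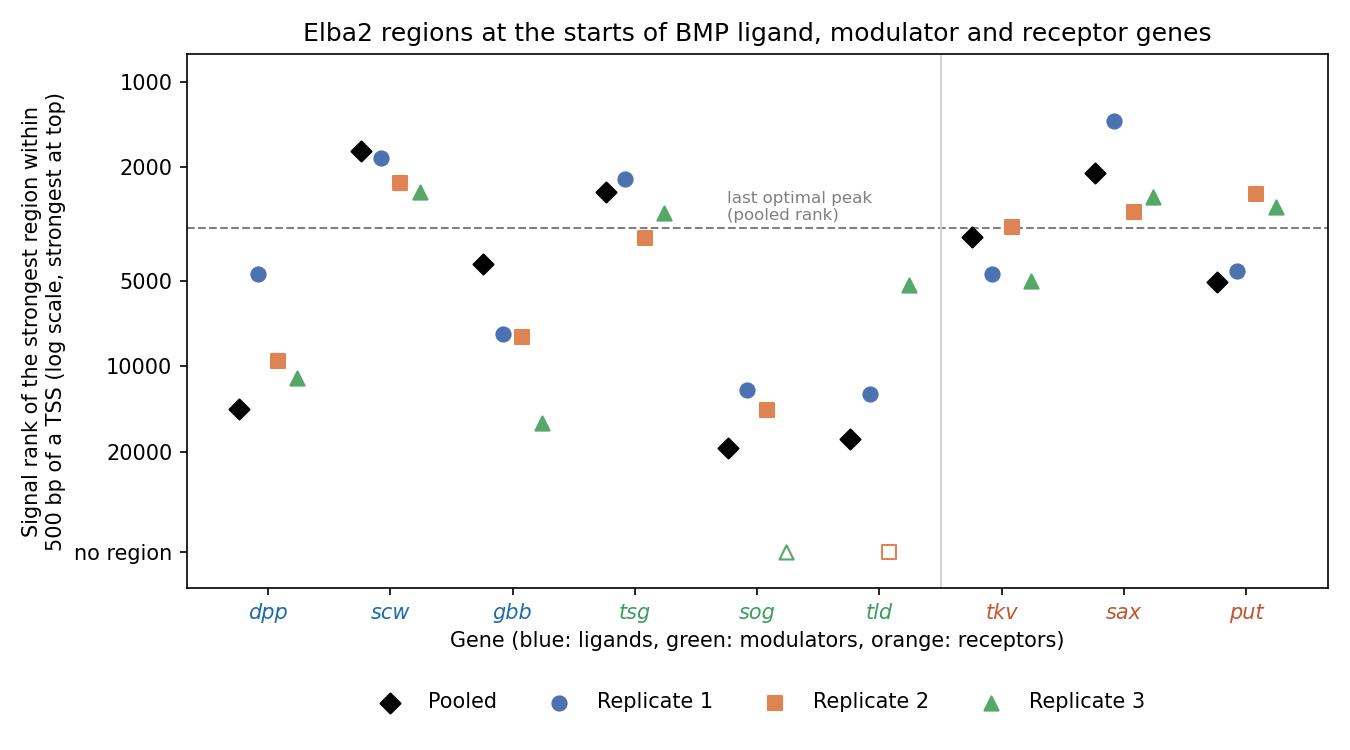
Signal rank (vertical axis, log scale, strongest at the top) of the strongest Elba2 region within 500 bp of a TSS of each gene (horizontal axis), in the pooled list and in each replicate, with open symbols where a list had no region. The pooled ranks of scw (1759), sax (2094) and tsg (2442) lie above the dashed line at the last optimal peak (3276), and tkv (3520) lies just below it.

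Among the ligand genes, scw had the strongest binding at its start. scw (FBgn0005590), which encodes the partner of Dpp in the embryo, lies at chr2L:19699379-19700968 on the minus strand, inside an intron of Lar on the opposite strand. Its optimal peak at chr2L:19700871-19701294 ranked 1759 with a signal of 153. The strongest region there ranked 1852 in replicate 1, 2279 in replicate 2 and 2446 in replicate 3. The summits of the 4 lists fell within 43 bp of each other, 112 to 155 bp upstream of the TSS. The 3 replicates thus placed it at similar ranks and at nearly the same position, and 10.7% of all genes had a better pooled rank at a TSS. A further pooled region, at rank 9267, lay 321 bp upstream.

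dpp (FBgn0000490), the main embryonic BMP ligand, spans chr2L:2428372-2459823 on the plus strand and had no optimal peak at any of its 4 TSSs. Of the pooled regions at its TSSs, the strongest ranked 14109 with a signal of 50, at the TSS at 2454737. Ranks at the gene's starts were 4720 in replicate 1, 9543 in replicate 2 and 10996 in replicate 3, but they belong to different starts. The strongest region of replicate 1 lay at the TSS at 2450193, where replicates 2 and 3 had none within 500 bp. The strongest summits of the 4 lists spread over 4794 bp. Just outside that window, 511 bp upstream of the TSS at 2450193, replicate 3 had a region at rank 6032. The pooled list had one 518 bp upstream, at rank 13004. At the TSS at 2454737 all 3 replicates had a region. Those nearest the pooled summit ranked 25311, 9543 and 10996 in replicates 1, 2 and 3, at 1, 181 and 98 bp from it. The most upstream TSS, at 2428372, had no region in any list. The start at 2454737 was thus the one that the replicates shared, with a weak region in each.

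gbb (FBgn0024234), the third ligand gene, spans chr2R:23851562-23853247 on the plus strand. Its region ranked 4357 in the pooled list, with a signal of 92.3, below the last optimal peak. It ranked 7681, 7906 and 15844 in replicates 1, 2 and 3, behind its pooled rank in each. The summits nevertheless lay within 11 bp of each other, 14 to 25 bp upstream of the TSS, the tightest spread of the 9 genes. The TSS of ytr lies within 500 bp, so the region cannot be given to gbb alone.

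Of the modulator genes, tsg was bound, whereas sog and tld had only weak regions. tsg (FBgn0003865), which encodes the protein that helps Sog carry the ligands, is a short gene at chrX:11988062-11988948 on the minus strand. Its optimal peak at chrX:11988977-11989400 ranked 2442 with a signal of 129 and lay between genes, 241 bp upstream of the TSS. It ranked 2189, 3544 and 2884 in replicates 1, 2 and 3, so that in replicate 2 it fell outside the strongest 3276 regions. The summits fell within 55 bp of each other, and 13.9% of all genes had a better pooled rank.

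sog (FBgn0003463), the BMP antagonist of the ventral side and a homologue of vertebrate Chordin, spans chrX:15603283-15633434 on the minus strand. The pooled region at its internal TSS, at 15626540, ranked 19279 with a signal of 43.4, the lowest of the 9 genes. It ranked 12059 and 14239 in replicates 1 and 2 and was absent from the list of replicate 3. The upstream TSS of sog, at 15633434, had no region in any of the lists. tld (FBgn0003719), which encodes the protease that cleaves Sog, spans chr3R:24749731-24753510 on the plus strand. Its pooled region ranked 18050 with a signal of 44.8, 368 bp upstream of the TSS. Ranks at the start of tld were 12473 in replicate 1 and 5196 in replicate 3, with no region in replicate 2. The summit of replicate 3 was 216 bp from that of replicate 1, and no region of replicate 3 lay within 200 bp of the pooled summit. The weak regions of sog and tld were therefore not found in every replicate.

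The receptor genes lay closer together in rank. sax (FBgn0003317), a type I receptor gene at chr2R:7806484-7810067 on the plus strand, carried an optimal peak at chr2R:7806382-7806805 that ranked 2094 with a signal of 140. Its strongest regions ranked 1372, 2871 and 2544 in replicates 1, 2 and 3. The peak summit lay 3 bp from a TSS, in the coding exon of sax, and the TSS of Nop17l is also within 500 bp. The replicate summits spread over 154 bp, and in replicate 3 the region nearest the pooled summit was another one, at rank 6117.

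tkv (FBgn0003716), the main type I receptor for Dpp, spans chr2L:5219000-5271384 on the minus strand and had the strongest region just outside the optimal set. At the TSS at 5242620 the pooled region ranked 3520 with a signal of 104, against 109 for the last optimal peak. It ranked 4741, 3227 and 5013 in replicates 1, 2 and 3, so that in replicate 2 it was among the strongest 3276. The pooled summit lay in an exon of the pseudogene CR14033, inside a tkv intron, and was 285 bp from the TSS of CR14033, nearer than the TSS of tkv at 364 bp. The region cannot be given to tkv alone. The most upstream TSS of tkv, at 5271384, had a region at pooled rank 10181 that was found in all 3 replicates. The TSS at 5244139 had a region at pooled rank 20564, found in replicates 2 and 3, and the TSS at 5237362 had a region in replicate 2 only.

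put (FBgn0003169), the type II receptor gene, spans chr3R:14619030-14625703 on the minus strand. Its strongest pooled region at the TSS ranked 5053 with a signal of 85.2 and lay in the 5′ untranslated region, 147 bp downstream of the TSS. The strongest regions at the TSS ranked 4639, 2481 and 2765 in replicates 1, 2 and 3, ahead of the pooled rank in each. The region of replicate 2, however, lay 491 bp downstream, and that replicate had none within 200 bp of the pooled summit. The TSS of His4r, a histone H4 gene, is also within 500 bp.

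The comparison of early ligands and modulators with receptors gave the same share of genes with an optimal peak at a TSS, 2 of 6 genes (33.3%) against 1 of 3 (33.3%). The 6 early genes include gbb, although it is known mainly for later roles. With groups of 6 and 3 chosen genes no test was made. The equal share does not hold in every setting, because tsg lost its peak without replicate 1, without replicate 3 and with the 1844 optimal peaks in the top regions of all replicates. The count was then 1 of 6 early genes against 1 of 3 receptor genes. Over the strongest 3276 regions of each replicate, the early ligand and modulator genes with a region at a TSS numbered 2, 1 and 2 in replicates 1, 2 and 3 (mean 1.67 ± 0.577, SD, n = 3), against 1, 3 and 2 of the receptor genes (2 ± 1, SD, n = 3). The receptor count varied most because tkv entered in replicate 2 and put in replicates 2 and 3. Over all 9 genes the counts were 3, 4 and 4 (3.67 ± 0.577), against 18.7%, 17.4% and 16% of all protein-coding genes in replicates 1, 2 and 3. scw and sax were among them in every replicate. With any region of a replicate list counted, 9, 8 and 8 of the 9 genes had one, against 53.8%, 50.9% and 51.5% of all genes.

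The pooled rank at a TSS had a median of 9233 over the 6 early genes (1759 to 19279) and of 3520 over the 3 receptor genes (2094 to 5053), so that the receptors lay within the range of the early genes. By role, the median was 4357 for the ligands and 18050 for the modulators. Over all 9 genes it was 4357, against 5680 over the 7432 protein-coding genes with a pooled region at a TSS. In the order of pooled ranks, 10.7% of all genes stood above scw, 12.4% above sax, 13.9% above tsg, 19.0% above tkv, 22.0% above gbb and 24.5% above put. A gap followed, with dpp at 41.7%, tld at 45.6% and sog at 46.6%. The neighbours scw and sax cannot be ordered by these ranks, because sax stood before scw in replicate 1 and after it in replicates 2 and 3.

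**Figure D2:**
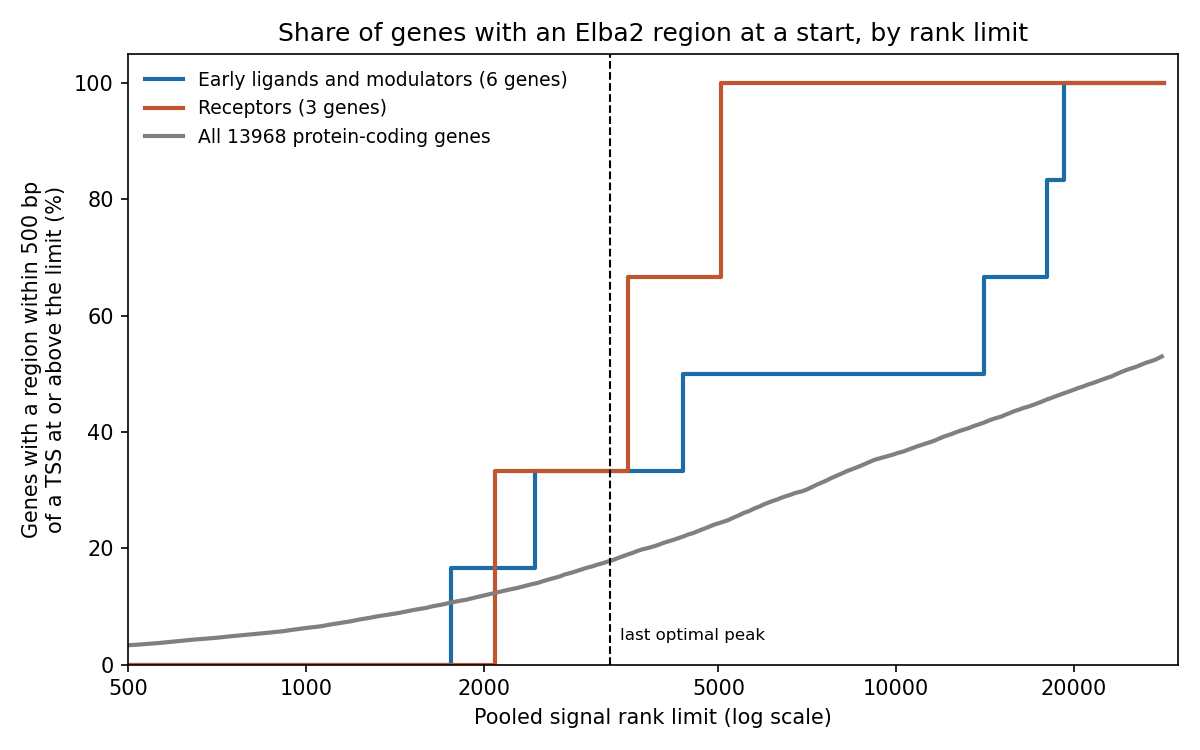
Share of genes (vertical axis, percent) with a region within 500 bp of a TSS among the pooled regions down to a given signal rank (horizontal axis, log scale), for the 6 early ligand and modulator genes, the 3 receptor genes and all 13968 protein-coding genes. At the last optimal peak, rank 3276, both groups stand at 33.3% and all genes at 17.9%, and all 3 receptor genes are included by rank 5053, against rank 19279 for all 6 early genes.

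The count of bound genes depended on where the list was ended. Within the strongest 1638 pooled regions, none of the 9 genes had a region at a TSS, against 10% of all genes. Down to rank 5053, 6 of the 9 genes had one, against 24.5% of all genes. They were 3 of 6 early genes, gbb among them, and 3 of 3 receptor genes. Between rank 5053 and rank 14109 no further gene was added, although the share of all genes grew to 41.7%. These 2 limits are the pooled ranks of put and dpp themselves. They were set by the genes counted, which raises the count at rank 5053. By pooled rank, the 9 genes fell into 6 with a region of middle rank and 3 (dpp, tld and sog) with a weak one. Replicates 1 and 3 did not repeat this split. There gbb ranked behind dpp, at 7681 against 4720 in replicate 1 and at 15844 against 10996 in replicate 3. In replicate 3 gbb also ranked behind tld (5196). In replicate 2 gbb (7906) stood ahead of dpp (9543).

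Away from the starts, no optimal peak lay in the body of any of the 9 genes, that is, in the annotated span outside the 500 bp around its TSSs. Among all protein-coding genes 5.86% had one. dpp, sog and tkv are the long genes of the set, and each held pooled regions, 5, 6 and 16 of them in the body. Counted over the whole span, the density was 25.4 regions per 100 kb in dpp, 23.2 in sog and 36.3 in tkv, against 20.7 over all chromosome arms. The density in dpp and sog rests on 8 and 7 regions and lay near that of the arms, and that in tkv rests on 19.

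The strongest body region of the set was in put, in coding sequence 2089 bp downstream of its TSS, with a pooled rank of 3789 and a signal of 100. The strongest regions within 200 bp of its summit ranked 3246, 5873 and 4779 in replicates 1, 2 and 3. In replicate 3 that region had its summit in an intron, and the region nearest the pooled summit was another one, at rank 7603. In tkv the strongest body region lay in the intron 539 bp downstream of the most upstream TSS, with a pooled rank of 3952 and replicate ranks of 9612, 3746 and 2139. In sog it lay in an intron 7062 bp downstream of the internal TSS, with a pooled rank of 5295 and replicate ranks of 4564, 6707 and 11249. The put and sog regions were found in the body in every replicate. For tkv, the region of replicate 2 had its summit 387 bp from the TSS, inside the TSS window, and is the same one counted at that TSS, so that 2 replicates had a body region there. In dpp the strongest body region, 2759 bp upstream of an internal TSS, had a pooled rank of 7871 and was absent from replicate 2.

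Within 10 kb of the gene span on either side, 3 of the 9 genes (gbb, sog and sax) had an optimal peak, against 48.5% of all protein-coding genes. Each of these peaks lay at the start of another gene. Upstream of gbb, the peak at chr2R:23850165-23850588 ranked 614 with a signal of 252, and its replicate ranks were 668, 288 and 3389. Its summit was 1185 bp from the start of gbb but 47 bp from that of asRNA:CR45928 and within 500 bp of that of eIF6, a translation initiation factor gene. The other peak near gbb, at rank 2696, lay 59 bp from the TSS of TBPH, the fly TDP-43 gene. Beside sax, the peak at chr2R:7812318-7812427 ranked 393 with a signal of 300 and lay 122 bp from the TSS of puml, with that of TTLL12 also within 500 bp. Its replicate ranks were 252, 316 and 2645. Near sog, the peak at chrX:15593655-15594078 ranked 3231 with a signal of 110, lay 9416 bp beyond the gene and was 333 bp from the TSS of Chsy, a chondroitin synthase gene. Its replicate ranks, 1990, 20823 and 3002, show that it was weak in replicate 2.

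The genes without an optimal peak at a TSS or in a flank were far from one. The nearest optimal peak was 32957 bp from the span of dpp, at Slh, and 33896 bp from tld, at CG5805. It was 27723 bp from put, with stumps, an adaptor of FGF signalling, as the gene of the nearest TSS, and 22015 bp from tkv, with vri, a bZIP transcription factor gene, as the gene of the nearest TSS. In the flanks of dpp and tkv the strongest pooled regions ranked 4014, 73 bp from the TSS of CG9886, and 4032, 87 bp from the TSS of Bub1, a mitotic checkpoint kinase gene. Those 2 regions lay at the starts of neighbouring genes. In the flank of tld the strongest region ranked 6488, in coding sequence of asp and 628 bp from its TSS. In the flank of put it ranked 6860, 502 bp from the TSS of CG14853. Both were outside the 500 bp counted as a start.

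**Figure D3:**
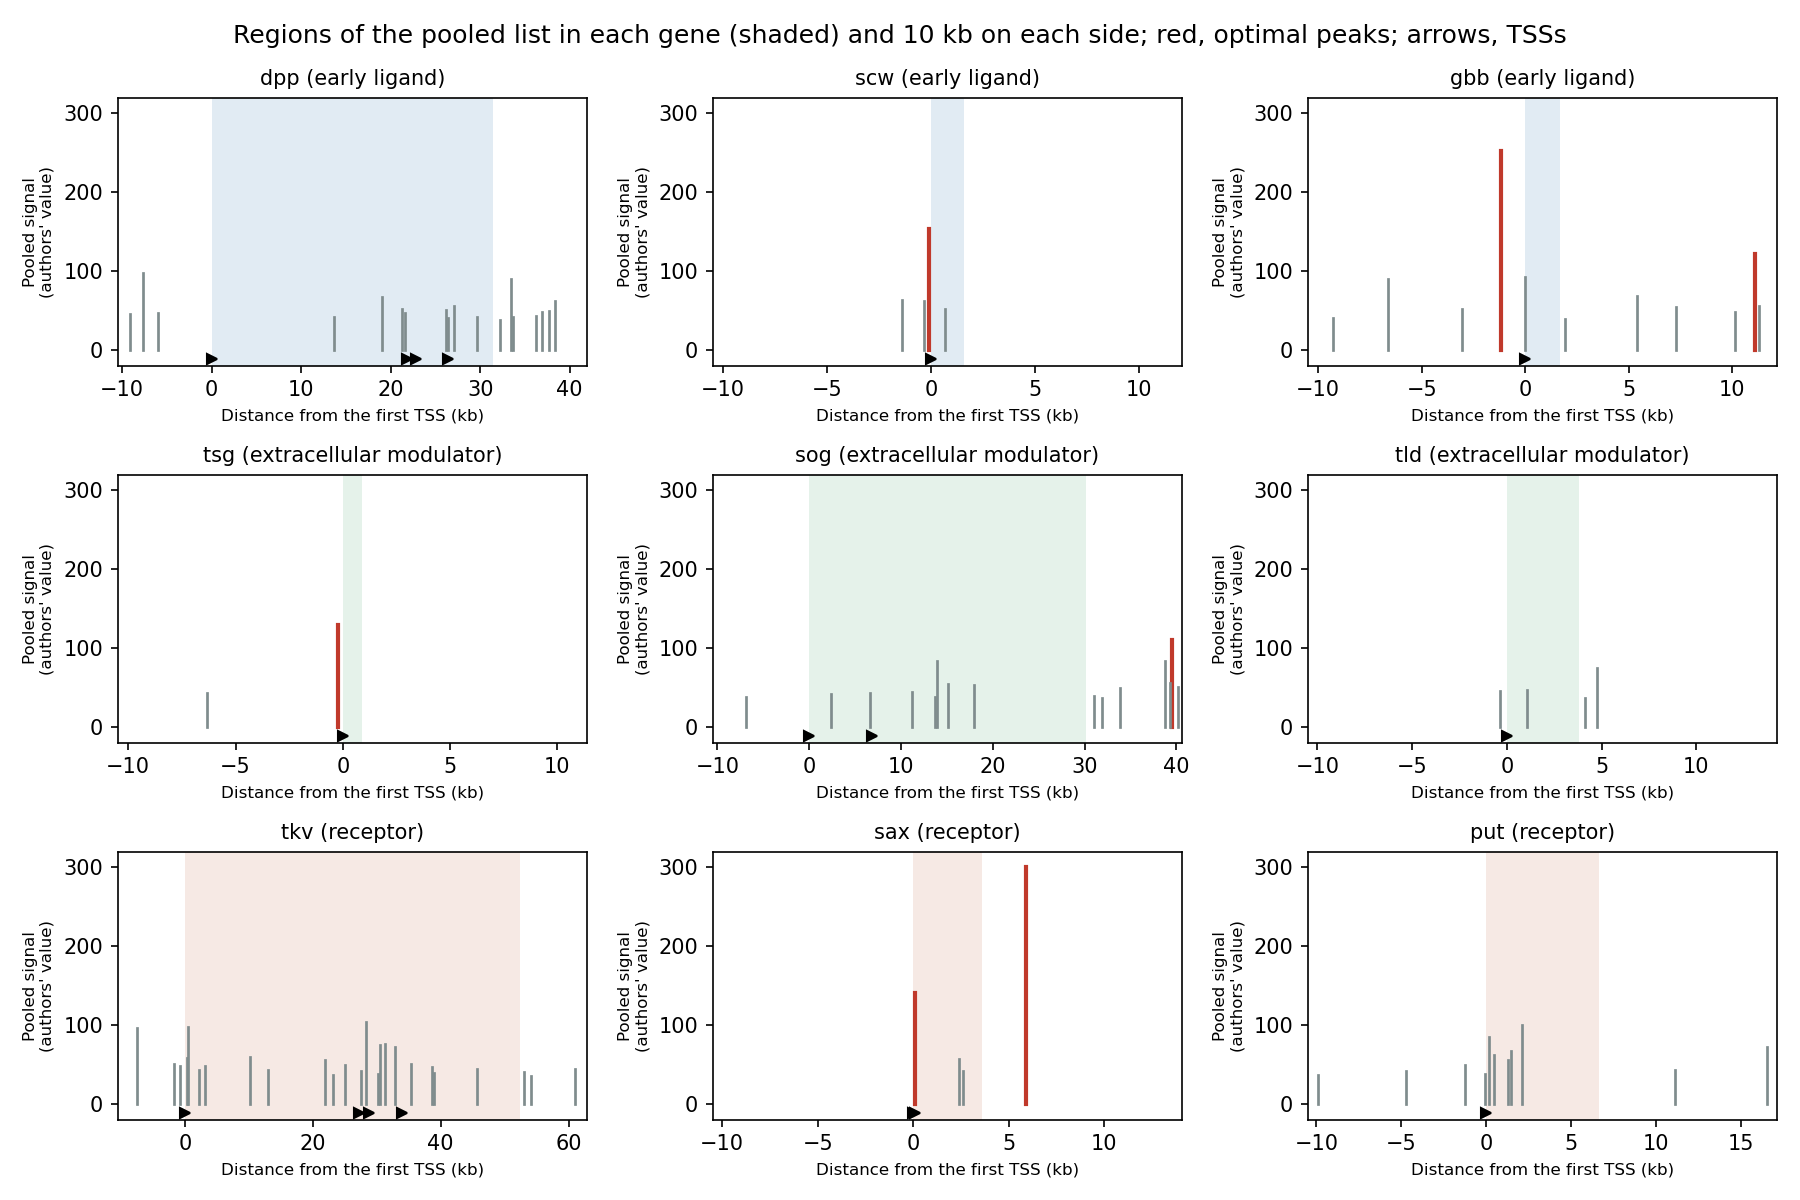
Signal of each pooled region (vertical axis, the authors' value) against its distance from the most upstream TSS in the direction of transcription (horizontal axis, kb), in each of the 9 genes (shaded) and 10 kb on each side, with optimal peaks in red and arrows at the TSSs. Optimal peaks stand at the starts of scw, tsg and sax and in the flanks of gbb, sog and sax, and no shaded body holds one outside a TSS window.

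The sequence under the regions differed from gene to gene. On either strand, 5 words were looked for within 100 bp of the strongest pooled summit at a TSS. These were CCAATAAG, CCAATTGG, a palindrome that the BEN-domain protein Insensitive binds, the Zelda site CAGGTAG, the M1BP site GGTCACAC and the DRE, TATCGATA, the last 2 being elements of promoters of broadly expressed genes. At least 1 word was present at 3 of the 9 genes, against 21.6% of the 7432 protein-coding genes with a pooled region at a TSS. At scw, CCAATAAG lay 60 bp from the summit and CAGGTAG 80 bp from it on the other side. At tld CAGGTAG lay 22 bp from the summit, and at sax the DRE lay 97 bp from it. The other 6 genes had none of the words in that window, though tsg had CAGGTAG at 132 and 185 bp.

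Over all 3276 optimal peaks, CCAATAAG was present within 100 bp at 6.90%, against 1.91% of 23209 weak pooled regions over 1000 bp from each optimal summit. Over the 2002 optimal peaks at a TSS, its share was 4.85%. The Zelda site was at 1.65% of optimal peaks and 1.44% of the weak regions, CCAATTGG at 9.16% and 1.78%, GGTCACAC at 6.72% and 1.57%, and TATCGATA at 5.34% and 1.80%. scw was the only one of the 9 genes with CCAATAAG at its TSS region, and CCAATTGG was at none. A match is a run of letters and does not show that the protein was there.

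Over a wider window of 500 bp around every TSS, chosen after the first values were seen, CAGGTAG was present at 4 of the 6 early genes (dpp, scw, tsg and tld) and at 0 of the 3 receptor genes, against 7.80% of all protein-coding genes. Among all genes with 1 TSS the share was 6.73%, and scw, tsg and tld have 1. The word lay 35 bp upstream of the TSS of scw, 56 and 109 bp upstream of that of tsg and 346 bp upstream of that of tld. In dpp it lay 11 bp upstream of the TSS at 2451229, 1275 bp from the nearest pooled summit at a start of the gene. The DRE showed the other arrangement, with 0 of 6 early genes and 2 of 3 receptor genes (tkv and sax), against 13.0% of all genes. Among genes with 1 TSS its share was 11.6%, but tkv has 4 TSSs and sax has 2, so more sequence was searched at them. GGTCACAC was at sax alone among the 9 genes, against 11.7% of all genes, and CCAATAAG at scw alone, against 3.64%. With 9 chosen genes these counts are descriptions. The Zelda site was present at the early genes with an optimal peak, scw and tsg, and at 2 without, dpp and tld. In dpp it lay at a TSS without a pooled region. Whether the site goes with a peak was not tested.

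Other genes of the pathway were taken from a list of 41 genes in 5 groups. An optimal peak lay at a TSS of 8 of the 41 (19.5%), against 17.9% of all protein-coding genes, so that the list as a whole stood near the share of all genes. A pooled region lay at a TSS of 32 of the 41, against 53.2% of all genes. Replicate ranks given for these 41 genes are of the strongest region at any TSS of the gene. They were not matched to the summit of the peak and may belong to another start. None of the 4 other TGF-beta family ligands had an optimal peak there, among them Actbeta and daw, ligands of the Activin branch, and mav. Of the 14 other extracellular modulators 2 (14.3%) had one. Fur1, which encodes a furin protease of the kind that processes BMP precursors, had the strongest peak of the list, at rank 254 with a signal of 357 and replicate ranks of 314, 114 and 713. That peak is shared with the start of Vps33B. magu, which encodes a secreted SMOC homologue, had a peak at rank 819 with replicate ranks of 1036, 602 and 1053. The modulators Col4a1, cv and cv-2 had none.

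Of the 8 genes of the intracellular signal and its feedback, 3 (37.5%) had an optimal peak at a TSS, against 17.9% of all protein-coding genes. All 3 encode Smads that transmit a signal, but the group is small and the number of TSSs per gene was not taken into account. Med, the co-Smad, ranked 774 with replicate ranks of 691, 720 and 1245, at a start shared with CycG. Smox, the Smad of the Activin branch, ranked 2368 with replicate ranks of 1833, 7339 and 1398. Mad, the Smad that carries the BMP signal, ranked 2441 with replicate ranks of 2578, 2432 and 3574, and its summit lay 384 bp downstream of the TSS. brk, Dad, an inhibitory Smad gene, and nmo had no optimal peak at a TSS. Sara, an adaptor that brings Smads to receptors, was the 1 of 3 other receptor genes and partners with a peak, at rank 2516 and with replicate ranks of 2137, 5993 and 3169. babo and wit, which encode further receptors, had none. Of the 12 dorsal embryonic targets 2 (16.7%) had a peak, peb at rank 2866 and ush at rank 2951, and ush ranked 3171, 14673 and 1681 in replicates 1, 2 and 3. Ance, C15 and Doc1, which are expressed in dorsal cells, had none.

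**Figure D4:**
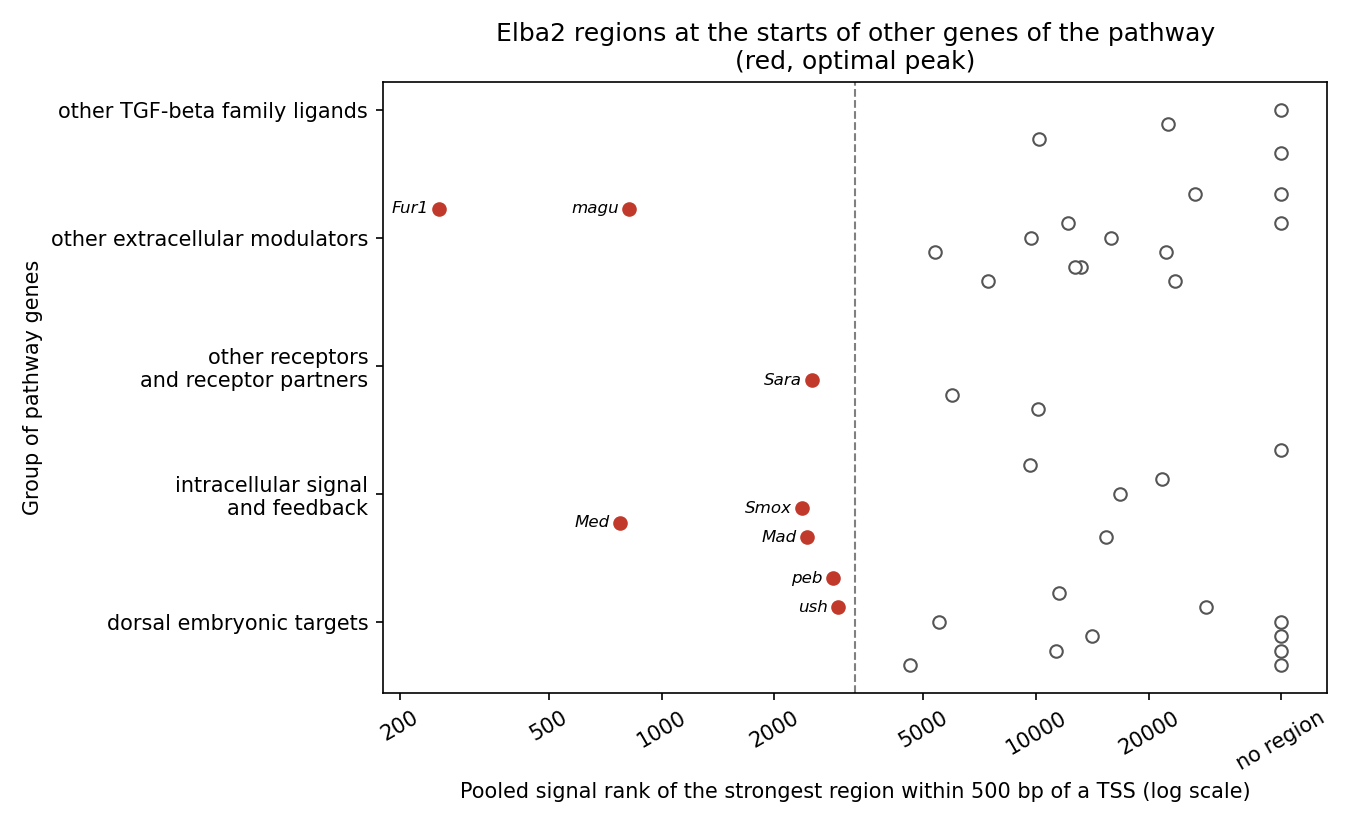
Pooled signal rank (horizontal axis, log scale) of the strongest region within 500 bp of a TSS for the 41 other genes of the pathway, by group (vertical axis, with points spread within a group only to keep them apart). The 8 genes with an optimal peak, in red, are left of the dashed line at rank 3276, and Fur1 (254), Med (774) and magu (819) rank above all 9 BMP ligand, modulator and receptor genes.

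The genes whose ranks were most like those of a bound member were found by the distance between log2 ranks at a TSS over the 3 replicates. They were sought among 2413 of the protein-coding genes with a rank in every replicate. For scw these were CG2604 (0.113), Rca1 (0.135) and Adf1 (0.138). For tsg they were Nacalpha (0.0819) and the pair Asph and Ric, which share a peak (0.150 each). For sax they were kin17 (0.148), CG42394 (0.259) and CG43184 (0.290). Likeness here is of rank alone. All of these genes also had an optimal peak, but they were picked for ranks like those of bound members, so this is not a separate result.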

How the data were processed

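Peak lists from ChIP-seq of Elba2-GFP in 3 replicates were analysed on dm6. Per the notes deposited beside the lists, the authors called regions for each replicate and for the pool against a control library, which was not used here, and took optimal peaks by IDR. Not given in the sources used here are the aligner, the caller and the threshold of the IDR. Chromatin was sonicated to 200 to 800 bp, per the labels. The authors' signal value ranked regions within a list, and the deposited −log10 q-value column broke ties. Lists on dm3 were not used here.

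Genes were matched by symbol to Ensembl release 115 (annotation 6.54). A summit within 500 bp of any annotated TSS counted for that gene, and the same peak counted for each gene it reached. Flanks were 10 kb, summits within 200 bp were matched between lists, and words were searched on both strands. Alternatives changed the distances, the peak set, the TSS set, the flank and the replicates. Python 3.11.15 with pandas 2.3.3, numpy 2.4.6 and matplotlib 3.10.9 was used. The counting was tested on simulated summits, where 500 of 500 planted genes were found. No test was made, since there is 1 group. The labels call the replicates biological.

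The 9 genes, the 41 pathway genes and the words were chosen with earlier results of these data known. All 9 genes were named, as were, in each pathway group, up to 4 genes with an optimal peak at a TSS by signal and up to 3 without in alphabetical order, the gene nearest each optimal peak in a body or flank, and 3 genes of like rank per bound member. Genes at weaker flank regions and at the nearest optimal peaks were named after their values were seen.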

Additional observations from a re-analysis of the deposited data

How the results depend on the processing

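Of 66 alternatives, 42 stayed within 1.5 times the reported value and 24 moved further. Of the 9 genes, 3 had an optimal peak at a TSS. That count became 1 (sax) within 100 bp, 0 with the stronger 1638 optimal peaks and 6 with the strongest 6552 pooled regions, an alternative chosen after seeing the data, which took in gbb, tkv and put. Without 1 replicate it was 2 to 3. scw and sax kept theirs under each such omission, and tsg lost it without replicate 1 or without replicate 3. The 2 early ligand and modulator genes became 0 within 100 bp, 0 with the stronger peaks, 1 with the 1844 optimal peaks in the top regions of all replicates, and 1 to 2 without 1 replicate. The 1 receptor gene became 0 with the stronger peaks and 3 with 6552 regions. The 8 pathway genes became 4 within 100 bp and 4 within 250 bp, 3 with the stronger peaks, 3 with the peaks in all replicates, and 3 to 7 without 1 replicate.

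The share of all genes, 17.9%, became 8.41% within 100 bp, 10% with the stronger peaks, 10.7% with the peaks in all replicates, 29.1% with 6552 regions and 11.6% to 13.8% without 1 replicate. The 3 genes with a peak within 10 kb became 1 with the peaks in all replicates and 1 to 2 without 1 replicate. The 3 genes with a word at the summit became 1 within 50 bp. The body count was 0 in all 5 alternatives. Leaving out a replicate also changes how peaks are chosen, since regions shared by the other 2 replace the optimal set. No paired analysis was possible because there is 1 group. Depth is unknown, so the absence of a region means that none was listed, not that Elba2 was absent. Fragments of 200 to 800 bp limit how closely a summit marks the contact, and the regions at gbb, tkv, sax and put also lie near the TSS of a neighbouring gene or pseudogene.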

Other observations

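Optimal peaks in gene bodies, which the 9 ligand, modulator and receptor genes lacked, were present in 10 of the 41 other pathway genes, against 5.86% of all protein-coding genes. These counts depend on gene length, which was not taken into account, so the shares cannot be compared directly. shn, which encodes a zinc-finger partner of Mad in repression, held 6 in its body, although its strongest TSS region ranked only 9660. ush, a dorsal target that encodes a partner of GATA factors, held 5 in its body besides the peak at its TSS, and Fur1 held 2. Within 10 kb of the span, 21 of the 41 genes had an optimal peak, against 48.5% of all genes, among them cv with 4 and Doc2 with 4, and these were not assigned to a gene.

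dlp, a glypican gene, had a region at a TSS at ranks 2566, 2519 and 3984 in replicates 1, 2 and 3, but at rank 5361 in the pooled list, and so carried no optimal peak. Fur2, a furin protease gene like Fur1, had a TSS region at rank 2714 in replicate 3 and none in the other lists. These genes were singled out after their values were seen.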
